A study of Mus musculus with 16 samples.

Results

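Transcripts of 9 genes for transcription factors were measured in 2 subsets of peritoneal tumor-associated macrophages (TAMs) from mice with ovarian cancer. The genes were chosen by name, and they are *Gata6*, the retinoid receptor genes *Rara*, *Rarb* and *Rxra*, and the macrophage factor genes *Cebpb*, *Bhlhe40*, *Klf2*, *Klf4* and *Maf*. They are 9 of the 55604 genes listed in the files, and all 9 were among the 16861 genes with enough counts to test (a minimum of 10 counts in 4 or more of the 8 libraries). The C57BL/6 mice were females, given as 6 to 8 weeks old with no stage named, and carried ID8 cells, an ovarian cancer line derived from mouse surface epithelium that spreads over the peritoneum with ascites. At 6 to 7 weeks with tumor, Tim-4+ TAMs were taken from ascites with anti-Tim-4 beads, and Tim-4- TAMs were then taken from the cells left over with anti-F4/80 beads. There were 4 pairs of Tim-4+ and Tim-4- libraries, numbered 793, 784, 783 and 779, each sequenced in 2 lanes that were summed. The numbers are those of the labels, and the study may use them in another order elsewhere, with the same libraries paired. How many mice stand behind a library is not given in the sources used here. The p-values of the paired test therefore measure the spread of the differences within these pairs of libraries.

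GATA6 is the zinc finger factor that sets the identity of resident peritoneal macrophages, and vitamin A metabolites from the omentum induce its gene. Retinoic acid binds the receptors RARα and RARβ, which sit on DNA as heterodimers with RXRα, and RXRα also pairs with other nuclear receptors such as the PPARs, liver X receptors and the vitamin D receptor. C/EBPβ is needed for large peritoneal macrophages to form, BHLHE40 supports their proliferation, KLF2 and KLF4 act in tissue macrophages that take up dying cells, and c-MAF is a macrophage factor that limits self-renewal.

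Gene counts summed to 53527928 to 57768202 per Tim-4+ library and 55618306 to 69594245 per Tim-4- library, so that 3 counts, taken as the lowest level that could be seen, stood for 0.0382 to 0.0630 CPM, the count scaled to the size of the library. Counting error was small for the members, whose counts ran from 194 to 119729 per library. *Timd4*, the gene for Tim-4, followed the labels, with 524 to 1744 CPM in Tim-4+ libraries and 1.97 to 85.0 CPM in Tim-4- libraries. The 6 macrophage markers (*Adgre1*, *Csf1r*, *Cd68*, *Itgam*, *Mertk* and *Lyz2*) summed to 43018 to 55498 CPM in Tim-4+ and 20532 to 32958 CPM in Tim-4- libraries, and 5 of the 6 passed the test as higher. The 9 mesothelial and epithelial markers went the other way in 9 of 9 genes, and their sum was 106, 197, 396 and 224 CPM in Tim-4+ libraries (pairs 793, 784, 783 and 779) and 425, 1277, 884 and 1931 CPM in Tim-4- libraries. The Tim-4+ library of pair 783 had the lowest *Timd4* and the highest mesothelial and epithelial sum of its subset, and the Tim-4- library of pair 793 had the highest *Timd4* and the lowest such sum of its own. The 4 fibroblast markers summed to 14.8 to 75.2 and 42.8 to 171 CPM, and B cell, T cell, dendritic cell, neutrophil and eosinophil marker sums stayed at or under 16.6 CPM in every library. Mast cell markers summed to 3.26 to 15.6 and 18.9 to 61.9 CPM, and in pair 783 erythroid markers reached 237 CPM in Tim-4+ and 59.2 CPM in Tim-4- TAMs. The part of these other cells in the results was not tested, and in bulk samples fewer cells of a type and less RNA per cell cannot be told apart.

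Tim-4+ TAMs had more transcript than Tim-4- TAMs for 7 of the 9 genes and less for 1. *Gata6*, *Rara*, *Rarb*, *Cebpb*, *Bhlhe40*, *Klf2* and *Klf4* were higher by 1.57-fold to 2.33-fold, *Maf* was 1.62-fold lower, and *Rxra* did not pass the test. Libraries were scaled by TMM factors and compared with the pair as a block in edgeR's quasi-likelihood test, with adjusted p-values (Benjamini-Hochberg) over all tested genes and a call at an adjusted p under 0.05. By the same rule 8.97% of all tested genes were higher, 8.43% were lower and 17.4% were called in either direction. All 4 pairs moved 1 way for 8 of the 9 members, against 42.6% of all tested genes. These 8 are the called members, and the paired test favors genes with 1 direction, so this adds no support to the calls. The members were chosen with earlier results of these data known, so the shares over all genes are a background and not a test. For all 9 members the ranges of the 2 subsets overlapped. Such ranges were apart for only 12.8% of all tested genes, so overlap does not set the members apart. For the 8 called members the differences lay within pairs, on top of differences between pairs.

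**Figure D1:**
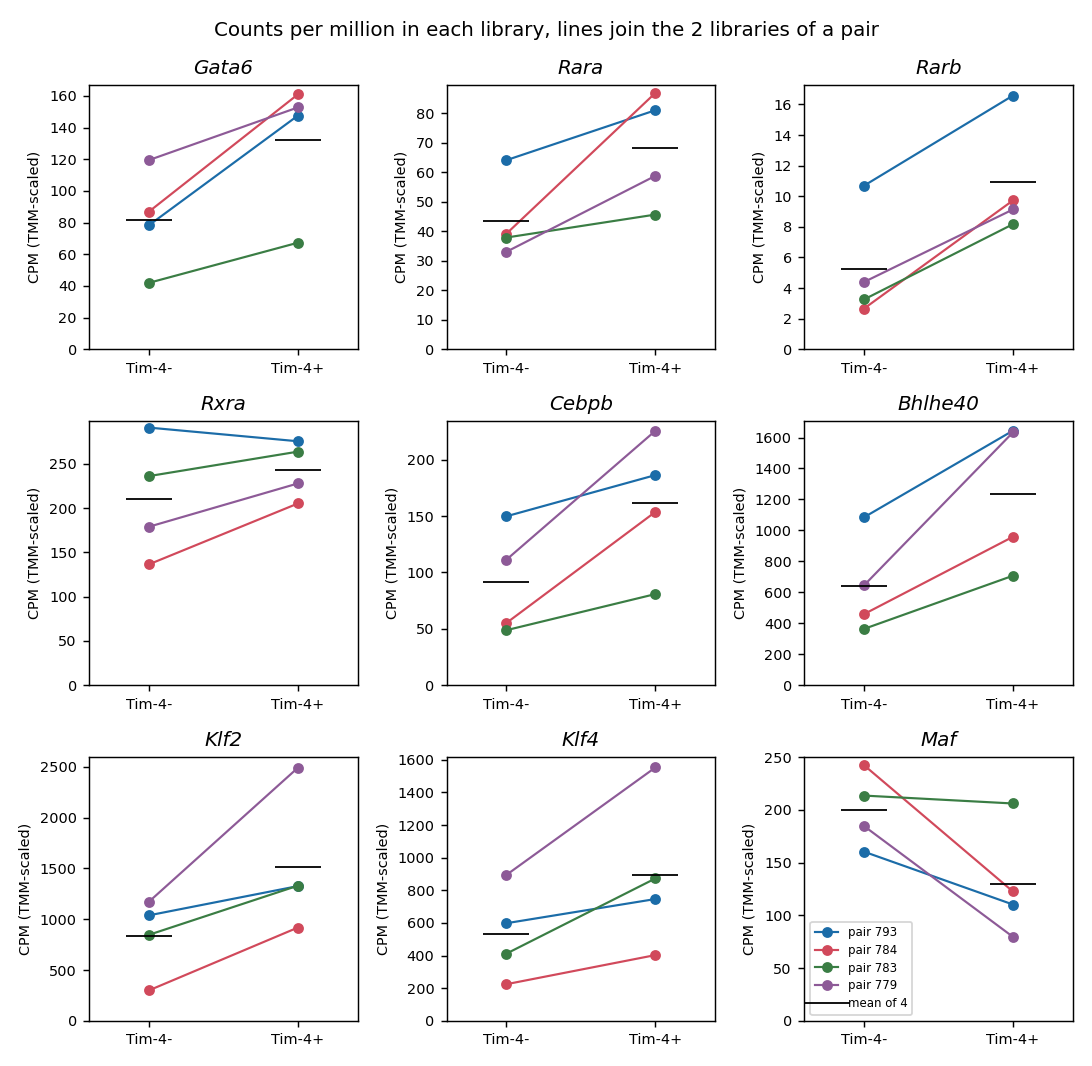
Level of each of the 9 genes in CPM (TMM-scaled, linear axis from 0) in the 4 Tim-4- and 4 Tim-4+ libraries. Each point is a library, each line joins the libraries of 1 pair, and the black bar is the mean of 4. The lines rise in all 4 pairs for *Gata6*, *Rara*, *Rarb*, *Cebpb*, *Bhlhe40*, *Klf2* and *Klf4* and fall in all 4 for *Maf*, while *Rxra* has 1 falling line, in pair 793.

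*Gata6* (ENSMUSG00000005836.10, chromosome 18, 11052064 to 11085635, plus strand, GRCm38) was measured at 148, 161, 67.3 and 153 CPM in the Tim-4+ libraries of pairs 793, 784, 783 and 779 and at 78.3, 86.9, 41.9 and 120 CPM in the Tim-4- libraries. Both libraries of pair 783 were the lowest of their subset, so the ranges overlapped, but the Tim-4+ library was the higher one in each pair. The means were 132 ± 43.6 CPM and 81.7 ± 31.9 CPM (SD, n = 4), and the log2 fold change was 0.71 (SE 0.12) with an adjusted p of 0.0122. The gap was smallest in pair 779, at a log2 ratio of 0.35, and larger in pairs 793 and 784, at 0.91 and 0.89. In the Tim-4- library of pair 793 *Gata6* had 2375 counts in lane 1, the lane listed by gene symbol, and 2851 in lane 2. That was the highest ratio of lane 2 to lane 1 for any member and library. The order of pairs 793 and 784 without that lane was not tested. With the lane left out, the log2 fold change over all pairs was 0.68 (edgeR, adjusted p = 0.0122). *1010001N08Rik*, a noncoding gene on the opposite strand that overlaps *Gata6*, had 2.92% as many counts, and the use of strand in counting is not given in the sources used here.

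Of 5 genes that the study names as downstream of GATA6 in peritoneal macrophages, 4 passed the test as higher in Tim-4+ TAMs. The study chose that list, and it is not independent evidence of a direction. *Cd5l*, which encodes a secreted scavenger protein, was at 2390 ± 1265 against 385 ± 145 CPM (log2 fold change 2.49, SE 0.37, adjusted p = 0.0110). *Ltbp1*, for a protein that binds latent TGF-β, *Aspa*, for aspartoacylase, and *Tgfb2*, for a TGF-β ligand, differed by 2.35, 2.37 and 1.91 on the log2 scale. *Nt5e*, which encodes the ectonucleotidase CD73, was at 143 ± 70.8 against 88.0 ± 41.6 CPM and did not pass (0.71, SE 0.26, adjusted p = 0.110). Its fitted difference was as large as that of *Gata6*, but pair 784 went the other way, at -0.32. With no filter on low counts 0 of the 5 passed in edgeR's test, with adjusted p-values of 0.0518 to 0.104 for the 4 genes, 4 unadjusted p-values under 0.05 and log2 fold changes of 1.89 to 2.48. Without the pair block, and likewise without pair 784, 2 of the 5 passed, and DESeq2 with the pair called 5.

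The retinoic acid receptor genes were both higher in Tim-4+ TAMs. *Rara* (ENSMUSG00000037992.16, chromosome 11, 98927818 to 98974942, plus strand) was at 81.0, 86.8, 45.6 and 58.7 CPM in Tim-4+ libraries and at 64.1, 39.1, 37.8 and 33.0 CPM in Tim-4- libraries, in the same order of pairs. The Tim-4- library of pair 793 lay above 2 of the Tim-4+ libraries, so the subsets overlapped. The log2 fold change was 0.65 (SE 0.16, adjusted p = 0.0336), with 1.15 in pair 784 and only 0.27 in pair 783.

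*Rarb* (ENSMUSG00000017491.9, chromosome 14, 16430839 to 16819156, minus strand) had the largest fold change of the 9 genes and the lowest level. It was at 16.6, 9.72, 8.17 and 9.13 CPM in Tim-4+ libraries and at 10.7, 2.65, 3.25 and 4.39 CPM in Tim-4- libraries. The Tim-4- library of pair 793 was again high, above 3 of the 4 Tim-4+ libraries, while the other 3 Tim-4- libraries were all below the Tim-4+ range. The log2 fold change was 1.22 (SE 0.23, adjusted p = 0.0140). *Top2b*, a gene on the opposite strand that overlaps *Rarb*, had 3398 to 4266 counts in Tim-4+ and 3909 to 6355 counts in Tim-4- libraries, against 194 to 789 for *Rarb*. If strand was not used in counting, reads of the 2 genes cannot be told apart where they overlap.

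A RefSeq start of *Rarb* and that of *Cyp26a1*, which encodes an enzyme that breaks down retinoic acid, are shown. Both hold the repeat that retinoic acid receptors are known to bind, and both genes were higher in Tim-4+ TAMs. For *Rarb* this start lies inside the gene span given above, not at its outer end. Counts per gene do not tell which start was used. The repeat searched for was GTTCA, then 6 bases of any kind, then GTTCA, on either strand, in RefSeq windows of 300 bases (250 before and 50 after a gene's start, GRCm38.p6). In capitals are the repeated letters, which read TGAAC where the repeat lies on the opposite strand. For *Rarb* the 30 bases are chr14:16575506-16575535 on the minus strand, with the repeat 52 to 37 bases before the start, and for *Cyp26a1* they are chr19:37697769-37697798 on the plus strand, with the repeat 32 to 17 bases before the start.
Rarb: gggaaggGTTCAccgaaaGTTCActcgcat
Cyp26a1: ttaaagaTGAACtttgggTGAACtaatttg
The repeat was present in 25 of 32851 windows (0.0761%), which belong to 24 genes. *Rarb* was the only member with it among the 6 that have a window (*Rara*, *Rarb*, *Rxra*, *Cebpb*, *Klf2* and *Klf4*), and a match is a description of letters, not of binding. Of the 24 genes 7 were tested, of which *Blvrb*, *Cfap45*, *Cyp26a1* and *Rarb* were higher, *Dmd* was lower, and *Lcorl* and *Tnfsf13b* did not pass. Over all tested genes 8.97% were higher and 8.43% were lower. The 7 genes are few and were named after their values were seen, so a role of the repeat was not tested.

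*Rxra* (ENSMUSG00000015846.14, chromosome 2, 27676440 to 27762957, plus strand) was at 276, 205, 264 and 228 CPM in Tim-4+ libraries and at 291, 137, 236 and 179 CPM in Tim-4- libraries. It was higher in Tim-4+ TAMs in 3 pairs and lower in pair 793. The means were 243 ± 32.4 and 211 ± 67.4 CPM, and the log2 fold change was 0.25 (SE 0.14, adjusted p = 0.231), which turned to -0.10 (adjusted p = 0.465) when libraries were scaled by total counts. Whether the differences of *Rxra* and *Rara* themselves differ was not tested.

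The other retinoid receptor genes bracketed these 3. *Rxrg*, for RXRγ, was low in both subsets but differed most, at 8.78, 13.7, 11.4 and 5.74 CPM in Tim-4+ libraries and 2.04, 1.34, 1.49 and 0.246 CPM in Tim-4- libraries (log2 fold change 3.15, SE 0.38, adjusted p = 0.00650). Every Tim-4+ library was above every Tim-4- library. *Rarg*, for RARγ, was at 133 ± 25.6 against 73.2 ± 27.8 CPM (0.92, SE 0.15, adjusted p = 0.0107), and *Rxrb*, for RXRβ, at 59.1 ± 16.1 against 61.4 ± 16.2 CPM (-0.06, SE 0.09, adjusted p = 0.714). Thus 4 of the 6 receptor genes were higher in Tim-4+ TAMs and none was lower. Scaled by total counts, 3 of the 6 were higher and 1 was lower.

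Of 43 genes of the retinoid pathway 36 were tested, of which 13 were higher and 1 was lower in Tim-4+ TAMs. Their median log2 fold change was 0.31 against -0.00 over all tested genes. The list was written with earlier results of these data known, so its counts and median describe these genes and do not test the pathway. Without the 3 members, 11 of 33 were higher and 1 was lower. The genes for enzymes that break down retinoic acid were among the higher ones, with *Cyp26a1* at 9.66 ± 6.73 against 1.82 ± 1.49 CPM (2.61, SE 0.33, adjusted p = 0.00710) and *Cyp26b1* at 3.43 ± 0.94 against 0.643 ± 0.48 CPM (2.62, SE 0.54, adjusted p = 0.0203). Both were higher in all 4 pairs, and *Cyp26c1* was near the floor in both subsets. *Cyp26a1* spread widely within Tim-4+ TAMs, from 2.95 CPM in pair 779 to 18.9 CPM in pair 793.

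Among 7 tested genes listed under retinoic acid synthesis only *Dhrs3* passed the test, at 454 ± 107 against 321 ± 113 CPM (0.54, SE 0.15, adjusted p = 0.0446). *Dhrs3* encodes a retinal reductase that forms retinol, which is a step away from retinoic acid. The listed genes for steps toward retinoic acid thus did not pass. *Aldh1a2*, for a retinal dehydrogenase, was at 18.3 ± 7.72 against 9.52 ± 2.73 CPM (adjusted p = 0.0593), and *Aldh1a1* at 22.6 ± 11.1 against 51.8 ± 31.3 CPM (adjusted p = 0.143). Of the proteins that carry retinoids, *Fabp5* was higher (0.59, SE 0.11, adjusted p = 0.0157). The coregulator gene *Ncoa1* was higher by 0.58, and the other 5 coregulator genes did not pass. Among 11 other receptors that pair with RXR, *Nr4a1* (1.31), *Nr4a2* (1.43), *Thrb* (0.66) and *Ppard* (0.54) were higher, and *Vdr*, for the vitamin D receptor, was lower, at 7.68 ± 4.19 against 28.2 ± 10.7 CPM (-1.91, SE 0.27, adjusted p = 0.00962). The *Vdr* level, like the mesothelial and epithelial marker sum, was highest in pair 783 and lowest in pair 793 among Tim-4+ libraries (13.9 and 4.90 CPM) and highest in pair 779 and lowest in pair 793 among Tim-4- libraries (39.6 and 13.9 CPM), and the part of those cells was not tested. Scaling by total counts gave 7 higher and 9 lower genes for the list, as it moved the median of all tested genes to -0.36, and for all genes it gave 789 higher and 4906 lower in place of 1512 and 1421.

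**Figure D2:**
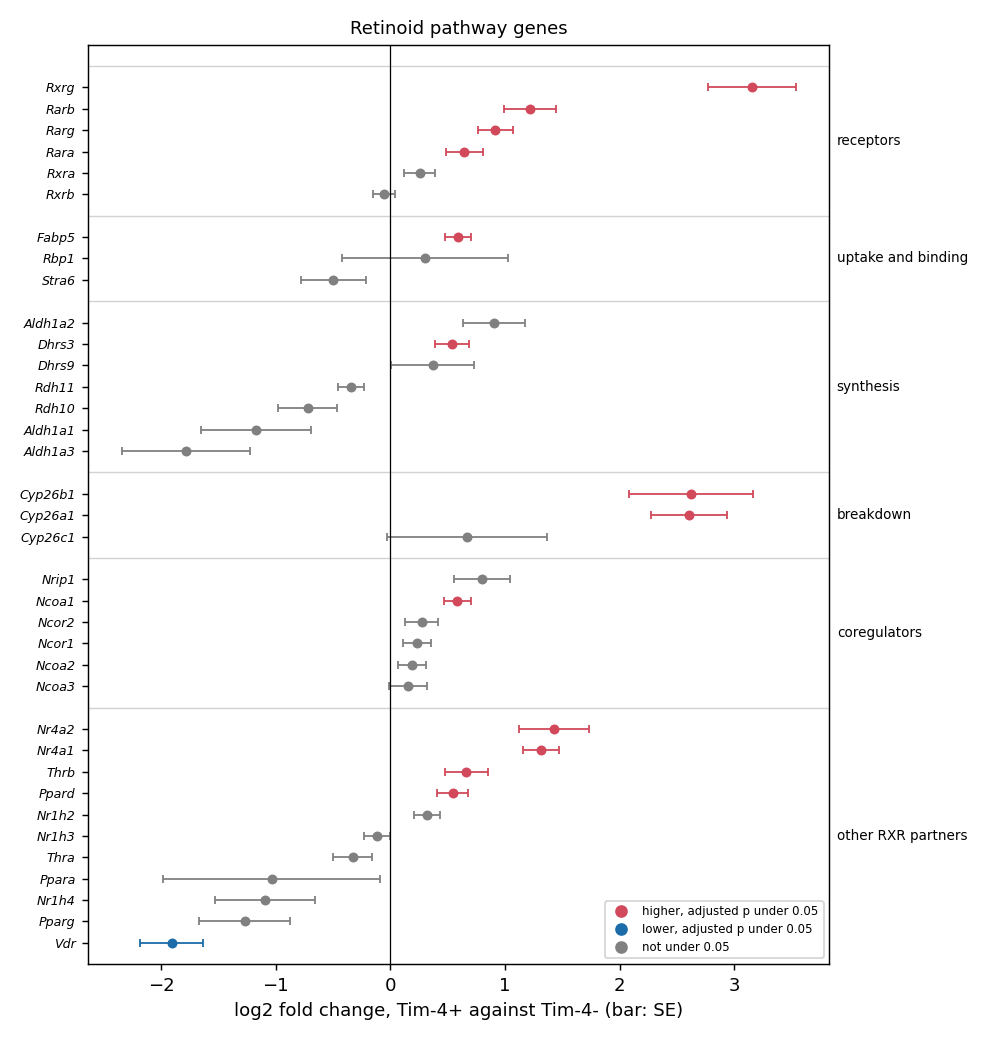
Log2 fold change of Tim-4+ against Tim-4- TAMs (x axis) for the 36 tested genes of the retinoid pathway, grouped by role, with SE bars from the paired fit. Red genes are higher, the blue gene (*Vdr*) is lower at an adjusted p under 0.05, and grey genes did not pass. *Rxrg*, *Cyp26b1* and *Cyp26a1* lie farthest to the right, at 3.15, 2.62 and 2.61.

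*Cebpb* (ENSMUSG00000056501.3, chromosome 2, 167688915 to 167690418, plus strand) was at 187, 154, 80.8 and 226 CPM in Tim-4+ libraries and at 150, 55.2, 48.7 and 111 CPM in Tim-4- libraries. The Tim-4+ library of pair 783 fell below 2 Tim-4- libraries, yet was above its own partner. The log2 fold change was 0.89 (SE 0.18, adjusted p = 0.0205) and ran from 0.31 in pair 793 to 1.48 in pair 784. The overlapping opposite gene *Tmem189* had 7542 to 12985 counts per library against 3824 to 10858 for *Cebpb*, with the same limit on strand. Of the 6 tested genes of the C/EBP family *Cebpb* was the only one that passed. *Cebpa*, the family member of early myeloid cells, was at 159 ± 16.6 against 191 ± 62.6 CPM (adjusted p = 0.371), *Cebpg* at 49.8 ± 14.2 against 49.1 ± 9.80 CPM and *Cebpd* at 25.3 ± 3.54 against 25.3 ± 5.12 CPM, and *Ddit3*, for the stress factor CHOP, was at 47.9 ± 50.7 against 33.2 ± 25.7 CPM. The symbol *Ddit3* has 2 identifiers, and only the older one is counted here.

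*Bhlhe40* (ENSMUSG00000030103.11, chromosome 6, 108660629 to 108666925, plus strand) had the smallest adjusted p of the 9 genes. It was at 1644, 958, 707 and 1633 CPM in Tim-4+ libraries and at 1084, 458, 363 and 644 CPM in Tim-4- libraries. At 1084 CPM, Tim-4- TAMs of pair 793 were above the Tim-4+ libraries of pairs 784 and 783. The log2 fold change was 0.99 (SE 0.16, adjusted p = 0.0104), and each pair rose by 0.60 to 1.34. Its paralogue *Bhlhe41* was at 81.8 ± 9.91 against 75.0 ± 23.0 CPM and did not pass (0.18, SE 0.19, adjusted p = 0.563).

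The Krüppel-like factor genes *Klf2* and *Klf4* moved alike. *Klf2* (ENSMUSG00000055148.7, chromosome 8, 72319033 to 72321656, plus strand) was at 1326, 919, 1330 and 2491 CPM in Tim-4+ libraries and at 1039, 300.2, 847 and 1173 CPM in Tim-4- libraries. *Klf4* (ENSMUSG00000003032.8, chromosome 4, 55527143 to 55532466, minus strand) was at 747, 403, 873 and 1553 CPM in Tim-4+ libraries and at 599, 225, 412 and 895 CPM in Tim-4- libraries. For both genes pair 779 held the highest and pair 784 the lowest library of each subset. The log2 fold changes were 0.92 (SE 0.22, adjusted p = 0.0285) for *Klf2* and 0.76 (SE 0.16, adjusted p = 0.0196) for *Klf4*.

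Of 17 genes of the KLF family 14 were tested, and 4 were higher in Tim-4+ TAMs and none was lower. Beside the 2 members these were *Klf9* (114 ± 62.7 against 62.0 ± 24.2 CPM, 0.82, SE 0.12, adjusted p = 0.00875) and *Klf7* (70.1 ± 24.6 against 39.7 ± 19.5 CPM, 0.91, SE 0.18, adjusted p = 0.0184). Scaled by total counts, 3 KLF genes were higher and 2 were lower. Immediate early genes, known to respond fast when cells are handled, were counted beside them. Of 13 tested, *Fosb* (1.37), *Dusp1* (0.94) and *Junb* (0.84) were higher, and *Fos* (0.27, adjusted p = 0.453) and *Egr1* (-0.51, adjusted p = 0.271) did not pass. The part of such genes in the KLF differences was not tested.

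*Maf* (ENSMUSG00000055435.6, chromosome 8, 115682942 to 115707794, minus strand), the gene for c-MAF, was the member that was lower in Tim-4+ TAMs. It was at 110, 123, 206 and 79.7 CPM in Tim-4+ libraries and at 160, 242, 214 and 185 CPM in Tim-4- libraries. The Tim-4+ library of pair 783 was the one inside the Tim-4- range, and in that pair the log2 ratio was -0.05. The log2 fold change was -0.70 (SE 0.19, adjusted p = 0.0460). Without pair 783 it was -0.91 (adjusted p = 0.00294), while leaving out any other pair took the adjusted p to 0.113 or above. The other 5 tested genes of the MAF family did not pass. The small MAF genes *Mafg*, *Mafk* and *Maff* were at 169, 96.4 and 39.9 CPM in Tim-4+ and at 150, 99.5 and 52.1 CPM in Tim-4- TAMs.

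**Figure D3:**
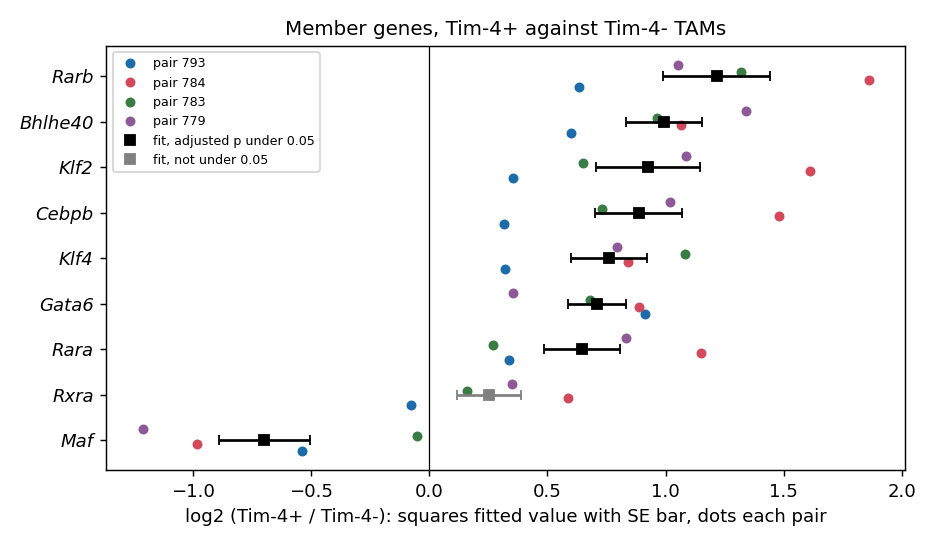
Log2 ratio of Tim-4+ to Tim-4- TAMs for the 9 genes (x axis), with the fitted value as a square and its SE as a bar, and the ratio in each pair as a dot. *Rarb* lies farthest to the right at 1.22, *Maf* lies left of 0 in all 4 pairs, and pair 793 gives the smallest rise for *Rarb*, *Bhlhe40*, *Klf2*, *Cebpb* and *Klf4*.

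Within the GATA family *Gata6* was the only gene that was higher in Tim-4+ TAMs, by the TMM-scaled fit, and under total counts it did not pass. *Gata4*, a relative of the same subfamily, was at 12.2, 22.2, 47.2 and 14.5 CPM in Tim-4+ libraries and at 36.9, 67.9, 45.1 and 81.6 CPM in Tim-4- libraries. It was lower in Tim-4+ TAMs in 3 pairs but not in pair 783, and it did not pass (-1.42, SE 0.39, adjusted p = 0.0541). Without pair 783 its log2 fold change was -1.90 (adjusted p = 7.75e-05). The order of the libraries for *Gata4* was close to that of the mesothelial and epithelial marker sum given above, with pair 783 highest and pair 793 lowest in Tim-4+ and pair 779 highest and pair 793 lowest in Tim-4- TAMs. The part of those cells was not tested. *Gata2* (0.212 ± 0.0603 against 0.917 ± 0.449 CPM) and *Gata5* (0.410 ± 0.298 against 2.40 ± 1.18 CPM) were lower, at low levels in both subsets. *Gata1*, *Gata3* and the cofactor genes *Zfpm1* and *Zfpm2* did not pass, at 2.63, 0.878, 23.0 and 3.81 CPM in Tim-4+ and 3.13, 1.43, 25.1 and 7.90 CPM in Tim-4- TAMs.

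Levels of different genes were compared per kilobase of exon. In Tim-4+ TAMs the order was *Klf2* (821 ± 367 CPM per kb), *Klf4* (293 ± 158), *Bhlhe40* (263 ± 101), *Cebpb* (108 ± 40.9), *Rxra* (44.5 ± 5.93), *Gata6* (20.3 ± 6.70), *Maf* (15.7 ± 6.56), *Rara* (15.6 ± 4.41) and *Rarb* (2.07 ± 0.729). Neighbours in this order overlapped between libraries, other than *Cebpb* with *Rxra*, *Rxra* with *Gata6* and *Rara* with *Rarb*. In Tim-4- TAMs *Maf* stood above *Gata6*, at 24.3 ± 4.31 against 12.6 ± 4.90 CPM per kb and with no overlap, and the other 7 genes kept their order. *Rarb* was last in both subsets, at 0.996 ± 0.703 CPM per kb in Tim-4- TAMs. Per kilobase of the longest transcript *Maf* (25.2 to 38.1 CPM per kb) and *Gata6* (11.1 to 31.6) overlapped in Tim-4- TAMs, *Bhlhe40* came before *Klf4* in both subsets, and *Rara* with *Rarb* was the only pair of neighbours that did not overlap in either subset.

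Over the 8 libraries the members varied in groups. Pearson's r of log2 CPM, given as a description over n = 8 libraries that share pairs and the sort, was 0.96 for *Cebpb* with *Bhlhe40*, 0.95 for *Klf2* with *Klf4*, 0.90 for *Rarb* with *Bhlhe40* and 0.85 for *Rara* with *Rarb*. *Maf* ran against *Cebpb* (-0.91) and *Bhlhe40* (-0.89). *Gata6* was closest to *Cebpb* (0.81) among the members, and its r with *Rxra* was -0.12. With the subset means removed, r was 0.95 for *Cebpb* with *Bhlhe40* and 0.94 for *Klf2* with *Klf4*. *Gata6* with *Klf2* fell to 0.04, and *Gata6* with *Rxra* to -0.43.

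Over 13002 genes whose mean reached 1 CPM, the patterns most like *Gata6* were those of *Dnajb6* (r = 0.98), *Ptgis* (0.98), *Itga7* (0.97), *Tmem11* (0.96) and *Tmem248* (0.95). Of these *Ptgis*, for prostacyclin synthase, was higher in Tim-4+ TAMs (279 against 152 CPM, log2 fold change 0.86, adjusted p = 0.00778), as was *Itga7*, for an integrin chain (3.73 against 1.14 CPM, 1.67, adjusted p = 0.0168), and the other 3 did not pass. The closest patterns were *Pde8a* and *Pycard* for *Rara* (both 0.99), *Bmp2* and *Tnfsf14* for *Rarb* (both 0.97), *Pdlim1* and *Kif13a* for *Cebpb* (both 0.99), *Kdm6b* and *Serpinb10* for *Bhlhe40* (both 0.98), *Ick* for *Klf2* (0.98) and *Hacd3* (0.99) and *Stac2* (0.98) for *Maf*. For *Rxra* it was *Pigq* (0.98), and for *Klf4* they were *Gm11131* and *Akap8l* (both 0.97).

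The number of members past the threshold varied between fits, as did that of all genes, and the fold changes moved less. Without the pair block 0 of the 9 members passed, with adjusted p-values of 0.202 to 0.420 for the 8 genes called with it, and 3 had an unadjusted p under 0.05. That fit called 1.38% of all tested genes in place of 17.4%. Without pair 784 edgeR's test gave 0 member calls as well, although 8 members had an unadjusted p under 0.05, and it called 0.927% of all genes. The log2 fold changes without that pair included 0.65 for *Gata6*, 0.69 for *Cebpb*, 0.97 for *Bhlhe40*, 0.73 for *Klf4* and -0.60 for *Maf*. Without pairs 793, 783 and 779 the numbers of members were 6, 8 and 3, beside 7.74%, 21.4% and 4.80% of all genes, and DESeq2 with the pair called the 8. Scaling by total counts left 5, with *Gata6*, *Rara* and *Klf4* not passing. The sign of each member was kept in all of these fits, other than that of *Rxra* under total counts.

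**Figure D4:**
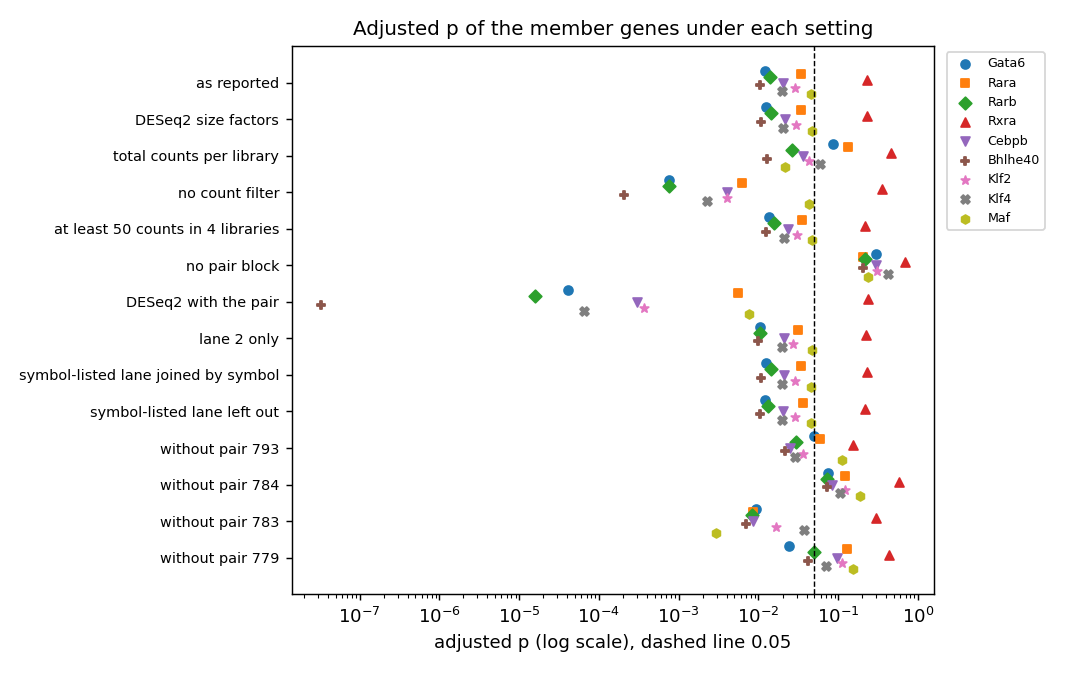
Adjusted p (x axis, log scale) of each of the 9 genes under the reported fit (top row) and 13 alternatives, with the dashed line at 0.05. Without the pair block and without pair 784 all 9 genes lie to the right of the line, and under DESeq2 with the pair 8 lie to the left.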

How the data were processed

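Per the labels, RNA was depleted of ribosomal RNA and sequenced from stranded paired-end libraries. The authors deposited whole-number read counts per gene for 16 lanes (8 libraries, 2 lanes each), without normalization. The submitters' notes name TopHat2 2.0.13, Cuffdiff 2.2.1 and FastQC 0.11.3 with GRCm38 (mm10), whereas the methods name hg19. The counter and its use of strand are not given in the sources used here.

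Lanes were summed. Chi-square per degree of freedom between lanes was 2.29 to 2.42, which is more than counting error alone gives. Lane 1 of the Tim-4- library of pair 793 is listed by gene symbol and was joined by order, since 96.8% of 53704 comparable symbols matched, and 9 of 9 members. Names and coordinates are from GENCODE M21 (98.6% of identifiers found). edgeR 4.0.16 in R 4.3.3 was used with TMM (factors 0.833 to 0.947 in Tim-4+ and 1.05 to 1.18 in Tim-4- libraries), robust quasi-likelihood fits and the pair number as a block, and p-values were adjusted by Benjamini-Hochberg over 16861 genes. The SE is the size of the log2 fold change over the square root of F. The block follows the numbers in the labels, and libraries of a pair deviated together from the subset means (r = 0.471, 0.498, 0.408 and 0.277 across genes). Correlations used log2 CPM with a prior count of 2. Alternatives were DESeq2 1.42.0 and its size factors, total counts, 2 other count filters, no block, lane 2 alone, a join by symbol or removal of the lane listed by symbol, and each pair left out.

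The members and gene lists were chosen with earlier results of these data known. Named were the members, all retinoid receptor, GATA, C/EBP, MAF and BHLHE genes of at least 1 mean CPM, and up to 4 called genes of largest change per other list. *Gata2*, *Aldh1a1*, *Aldh1a2*, *Cyp26c1*, *Nt5e*, *Ppard*, *Id3*, *Fos*, *Egr1* and the genes with the promoter repeat were named after their values were seen. No promoter window of *Gata6*, *Bhlhe40* or *Maf* was used here. A few genes of the named rules are not reported here.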

Additional observations from a re-analysis of the deposited data

Results flagged for a closer look

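The *Gata6* level in the Tim-4+ library of pair 783, 67.3 CPM, was set apart from the other Tim-4+ libraries, which lay between 147.6 and 161.0 CPM. Its distance from the nearest of them was 0.857 of the range of the 4 libraries, above the 95% critical value of Dixon's test for 4 samples. Among 18 groups of 4 libraries (9 genes in 2 subsets) this was the 1 that passed, and chance gives about 1 in 20. The same library had the lowest *Timd4* of its subset (524 CPM) and the highest mesothelial and epithelial marker sum (396 CPM), and its Tim-4- partner had the lowest *Gata6* of the other subset, at 41.9 CPM. The cause was not tested. Without pair 783 the log2 fold change of *Gata6* was 0.72 (edgeR, adjusted p = 0.00933) in place of 0.71.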

How the results depend on the processing

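Of 117 values of the 9 genes under 13 alternatives, 90 kept their direction and their side of the threshold, 26 kept their direction but no longer passed, and 1 reversed, *Rxra* under total counts, at -0.10. Without the pair block, which ignores the pairing, *Gata6* was at 0.69, *Rara* at 0.64, *Rarb* at 1.06, *Cebpb* at 0.83, *Bhlhe40* at 0.96, *Klf2* at 0.85, *Klf4* at 0.75 and *Maf* at -0.63, and the common coefficient of variation rose from 0.261 to 0.396. That fit called 0 members higher and 0 lower, 1 higher and 0 lower retinoid gene (12 and 4 unadjusted), 0 higher and 1 lower gene of the 64 other macrophage factors (7 and 8 unadjusted), and 147 higher and 85 lower genes in all. Total counts gave 789 higher and 4906 lower genes in all, 4 higher members, 7 higher and 9 lower retinoid genes and 14 lower other factors. DESeq2 with the pair gave 2323 lower genes in all, 5 lower retinoid genes, and 20 higher and 10 lower other factors. With no count filter 3 retinoid genes were lower. Leaving out 1 pair at a time gave 91 to 1608 higher and 67 to 1975 lower genes in all, 0 to 7 higher and 0 to 1 lower members, 1 to 14 higher and 0 to 5 lower retinoid genes, and 0 to 16 higher and 1 to 11 lower other factors, with the fewest higher ones without pair 784. The cause was not tested. With the longest transcript in place of all exons, the mean level over the 8 libraries was 28.3 in place of 16.4 CPM per kb for *Gata6* and 2.60 in place of 1.53 for *Rarb*, and *Gata6* then stood above *Maf* (25.9). DESeq2 size factors, a filter of 50 counts, lane 2 alone and both other treatments of the symbol-listed lane left the 8 calls in place.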

Other observations

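Beyond the families of the members, 30 other genes for macrophage transcription factors were listed, of which 28 were tested. In Tim-4+ TAMs 6 were higher and 1 was lower by edgeR's quasi-likelihood test at an adjusted p under 0.05, with a median log2 fold change of 0.20. This list too was written with earlier results of these data known. The largest rises were those of *Tfec*, a relative of the lysosomal factor TFEB (19.3 ± 3.21 against 10.1 ± 4.33 CPM, 1.02, adjusted p = 0.0167), *Nfil3*, a basic leucine zipper factor (263 ± 70.7 against 143 ± 65.4 CPM, 0.93, adjusted p = 0.0121) and *Ets2*, an ETS factor downstream of growth factor signals (583 ± 162 against 328 ± 147 CPM, 0.89, adjusted p = 0.0113). *Batf3*, known from dendritic cells, was lower, at 0.529 ± 0.0826 against 2.79 ± 1.31 CPM (-2.25, adjusted p = 0.0114). Every Tim-4+ library was above every Tim-4- library for *Tfec* and below for *Batf3*. *Id3*, a factor of resident macrophages in liver, was at 62.2 ± 29.8 against 148 ± 92.8 CPM and did not pass (-1.16, adjusted p = 0.0515). Its sign was kept in all 13 alternative fits, and it passed as lower in 5 of the 13.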
